A study of Mus musculus with 10 samples.

Results

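Endothelial junction and surface genes are described here across 5 stages of blood development from mouse embryonic stem cells. The 9 genes were taken by symbol: Cdh5, Pecam1, Esam, Cldn5, Icam2, Emcn, Eng, Cd34 and Egfl7. All 9 were found among the 15686 genes of the deposited table of stage means and among the 55487 genes of the count tables, and all 9 passed the filter on low counts that left 22596 genes for testing.

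RNA was measured by sequencing of ribosomal RNA-depleted nuclear RNA, with 2 libraries for each stage and 10 in all. ES is the undifferentiated HM-1 line, a mouse embryonic stem cell line kept on gelatin with LIF, and the other 4 stages came from this single line by culture in serum. HB (hemangioblast) cells were dissociated from floating embryoid bodies after 3 days and enriched with magnetic beads for FLK1, the receptor encoded by Kdr. The FLK1-positive cells were then cultured with VEGF, IL-6 and medium conditioned by D4T endothelial cells and sorted by flow cytometry into HE1 (hemogenic endothelium 1, KIT+ TIE2+ CD41-), HE2 (hemogenic endothelium 2, KIT+ TIE2+ CD41+) and HP (hematopoietic progenitor, KIT+ TIE2- CD41+). TIE2 is encoded by Tek and CD41 by Itga2b.

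Endothelial cells line vessels as a sheet held together by adherens and tight junctions. VE-cadherin, JAM-like and immunoglobulin-family adhesion molecules and claudins bind their counterparts on the neighbouring cell, while catenins and scaffold proteins tie them to actin inside. During the endothelial-to-hematopoietic transition, flat hemogenic endothelial cells loosen these contacts, round up and leave the sheet as blood progenitors, and CD34 is known to be carried by endothelium and by early blood cells alike.

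The 9 genes lie on 7 chromosomes of mm10 (Ensembl annotation). Cdh5 (ENSMUSG00000031871) spans chr8:104101625-104144511 on the plus strand, Pecam1 (ENSMUSG00000020717) chr11:106654217-106750628 on the minus strand and Esam (ENSMUSG00000001946) chr9:37528078-37538319 on the plus strand. Cldn5 (ENSMUSG00000041378) spans chr16:18776847-18778262 on the plus strand, Icam2 (ENSMUSG00000001029) chr11:106377656-106388075 on the minus strand and Emcn (ENSMUSG00000054690) chr3:137341067-137432185 on the plus strand. Eng (ENSMUSG00000026814) spans chr2:32646595-32682669, Cd34 (ENSMUSG00000016494) chr1:194938819-194961279 and Egfl7 (ENSMUSG00000026921) chr2:26580014-26593120, all 3 on the plus strand. Icam2 and Pecam1 are the closest pair, 266.1 kb apart. Among the 9, Egfl7 alone shared exon bases with other genes on its strand: 264 bases, or 7.37% of its counted bases, with the predicted gene Gm20532, and 73 bases with Mir126a, and fragments there were counted for each gene.

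RefSeq promoter windows, from 250 bases before to 50 after a start site (GRCm38.p6, the same chromosomes as mm10), were found for 5 of the 9 genes, Cldn5, Emcn, Eng, Cd34 and Egfl7, in 7 windows. They are shown because 4 of the 5 rose into HE1, and because ETS factors such as ERG and FLI1 are known regulators of endothelial genes. Cldn5 has no match to the ETS word searched, and for Egfl7 the window with the most matches is given. Sequences read 5′ to 3′ on the plus strand, and capitals mark AGGAAG or its reverse complement CTTCCT.
Cldn5, chr16:18776597-18776896: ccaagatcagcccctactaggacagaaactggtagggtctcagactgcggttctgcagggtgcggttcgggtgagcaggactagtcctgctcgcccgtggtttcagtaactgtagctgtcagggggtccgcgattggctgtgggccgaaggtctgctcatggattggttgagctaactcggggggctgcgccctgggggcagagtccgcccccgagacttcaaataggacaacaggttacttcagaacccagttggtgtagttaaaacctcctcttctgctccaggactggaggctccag
Emcn, chr3:137340828-137341127: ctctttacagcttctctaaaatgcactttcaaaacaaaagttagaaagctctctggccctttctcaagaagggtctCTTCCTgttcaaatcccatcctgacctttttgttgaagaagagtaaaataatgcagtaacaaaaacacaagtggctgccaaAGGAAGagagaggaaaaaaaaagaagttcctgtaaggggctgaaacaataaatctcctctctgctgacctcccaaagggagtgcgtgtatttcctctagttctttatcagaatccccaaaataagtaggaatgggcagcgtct
Eng, chr2:32646345-32646644: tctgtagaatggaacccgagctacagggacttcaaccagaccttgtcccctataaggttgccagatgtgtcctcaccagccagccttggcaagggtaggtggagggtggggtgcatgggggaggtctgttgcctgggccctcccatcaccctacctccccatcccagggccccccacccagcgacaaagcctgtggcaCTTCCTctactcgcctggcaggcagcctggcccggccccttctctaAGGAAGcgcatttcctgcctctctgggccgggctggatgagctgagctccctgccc
Cd34, chr1:194938571-194938870: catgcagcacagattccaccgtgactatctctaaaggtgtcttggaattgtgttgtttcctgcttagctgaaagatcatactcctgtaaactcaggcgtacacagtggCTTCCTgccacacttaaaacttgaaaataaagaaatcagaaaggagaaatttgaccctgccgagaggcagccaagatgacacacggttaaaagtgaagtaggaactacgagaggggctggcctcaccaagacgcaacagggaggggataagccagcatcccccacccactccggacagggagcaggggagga
Egfl7, chr2:26580833-26581132: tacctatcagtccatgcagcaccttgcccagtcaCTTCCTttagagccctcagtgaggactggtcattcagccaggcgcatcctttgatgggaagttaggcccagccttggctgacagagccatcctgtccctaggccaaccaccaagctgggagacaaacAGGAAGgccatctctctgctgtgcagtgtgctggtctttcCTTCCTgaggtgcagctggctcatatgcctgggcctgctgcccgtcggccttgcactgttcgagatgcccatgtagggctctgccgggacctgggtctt

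The word AGGAAG, on either strand, was in 5 of the 7 windows, against 35.4% of all 32817 promoter windows. By gene it was in 4 of the 5 (Emcn, Eng, Cd34 and Egfl7), for which no share over all genes was computed. Matches were 2 in Emcn, 2 in Eng, 1 in Cd34 and 3 in the Egfl7 window shown. The other ETS word searched, CCGGAA, was in 0 of the 7 windows, against 14.9% of all windows. Of the further words, all searched on both strands, CACCC (KLF) was in 4 of the 7, against 57.5%, and ACAAAG (SOX) in 2, against 18.7%. The E-box CAGCTG was in 1 of them, against 16.3%. The same held for a second E-box, CATCTG, against 17.2%, and for the TEAD word GGAATG, against 14.7%. No window held the GATA word AGATAA, found in 11.2% of all windows, or the second SOX word ACAATG, found in 12.6%. The AP-1 word TGACTCA and the RUNX word TGTGGT were absent from the 7 as well, against 5.2% and 16.8% of all windows. A match is a run of letters and not a binding site.

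Levels below are CPM (counts scaled to a library total of 1000000, with TMM factors) and FPKM (CPM per kilobase of counted exon) where genes are compared with each other. A change was called where edgeR's quasi-likelihood test across all 10 libraries gave a Benjamini-Hochberg adjusted p under 0.05 and at least a 2-fold difference, and log2 fold changes are given with their standard error (SE). Library totals ran from 24920434 to 58782055 counts, so that 3 counts, the limit of what a count of 0 allows, stood for 0.0532 to 0.126 CPM. Between the 2 libraries of a stage, r across genes was lowest for HE1 (0.976, against 0.984 for HE2 and 0.998 for ES), whereas chi-square per degree of freedom of the counts was highest for HE2 (67.9, against 49.7 for HE1 and 3.16 for ES). A list of 9 pluripotency genes summed to 118 CPM in HE1 replicate 2 and 11.8 CPM in replicate 1, with all 9 higher in replicate 2 and none at 0 in either library (ES 4010 and 3979, HB 434 and 446, HE2 and HP 3.91 to 11.5 CPM), and 11 mural and cardiac genes summed to 1768 and 879 CPM. The sorted antigens followed their gates in part. Tek was at 564 and 294 CPM (HE1), 285 and 159 (HE2) and 61.5 and 64.2 (the TIE2- HP), whereas Itga2b was already at 227 and 127 CPM in the CD41- HE1, before 505 and 469 CPM in HE2 and 400.4 and 367 in HP. Kit was at 146 and 73.0 CPM (HE1), 230.3 and 410.3 (HE2) and 363 and 251 (HP), and Kdr, the gene of the HB sort, at 957 and 1284 CPM in HB.

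Most of these genes rose into HE1 and were lower again in HP. HE1 was called above HB for all but Cldn5, and HP was called below HE1 for all but Cd34. How much of that fall lay before HE2 and how much after it differed between the 2 HE2 libraries. The plot of levels by library shows each gene.

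**Figure D1:**
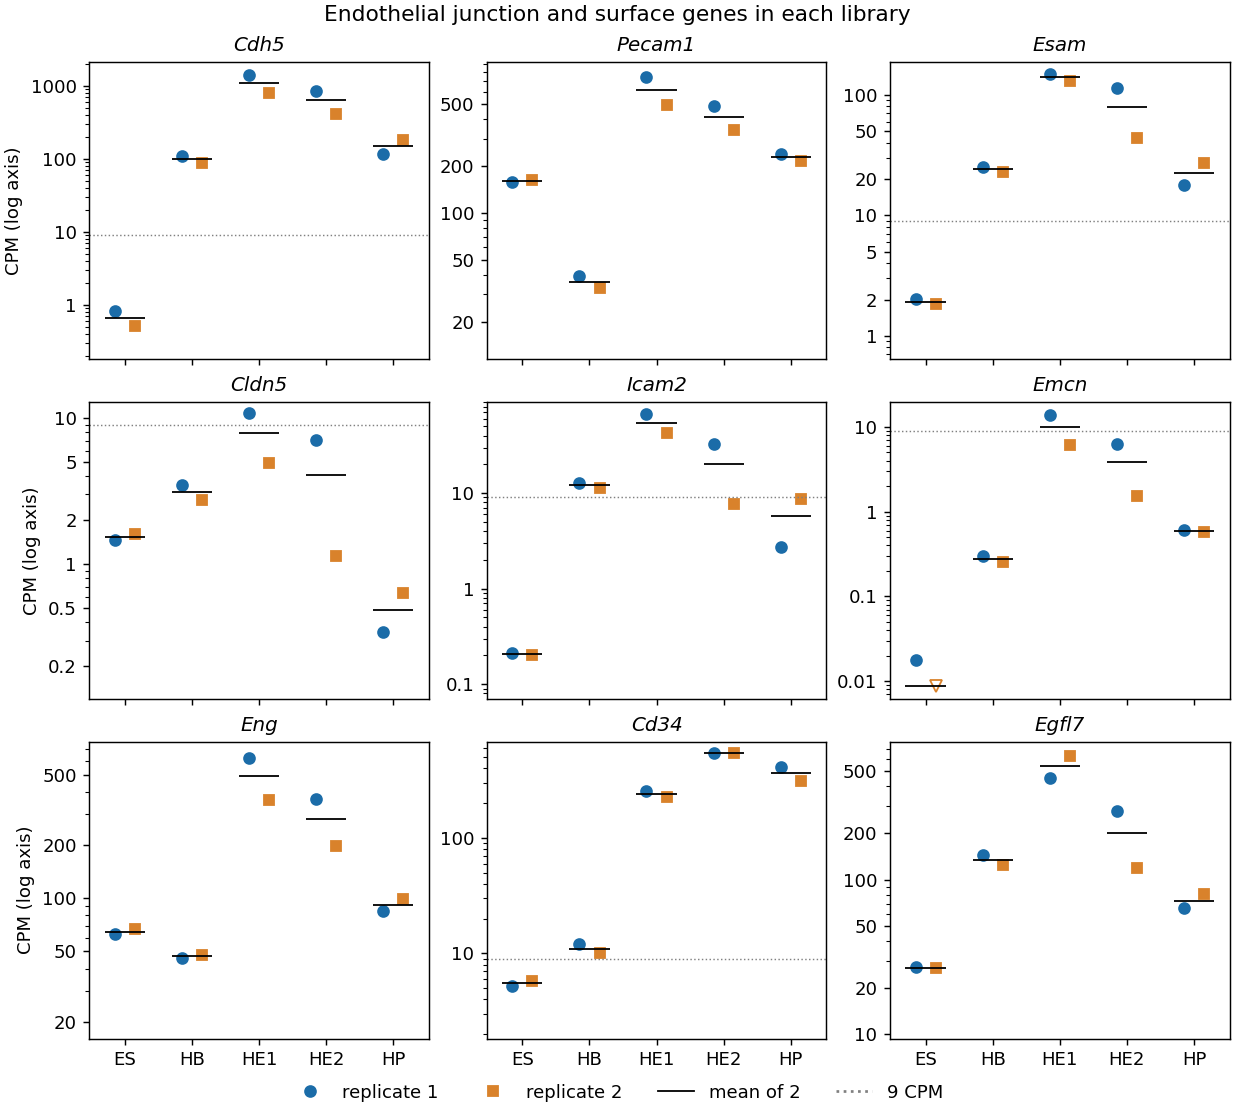
CPM of each of the 9 genes (log axes with their own ranges) in the 5 stages, with circles and squares for the 2 libraries of a stage, a bar for their mean and a dotted line at 9 CPM. The mean of each gene is higher in HE1 than in HB, and 8 are highest in HE1 while Cd34 is highest in HE2, and the open triangle at the bottom for Emcn marks a count of 0.

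Cdh5 encodes VE-cadherin, the adherens-junction cadherin of endothelium. Its level was 0.816 and 0.516 CPM (ES), 109 and 87.6 (HB), 1431 and 798 (HE1), 862 and 412 (HE2), 118 and 179 (HP). The 10 libraries fell into non-overlapping stages except that the higher HE2 library lay above the lower HE1 library. Cdh5 rose 142-fold from ES to HB (log2 fold change 7.15, SE 0.516, adjusted p = 4.3e-06) and 11.3-fold from HB to HE1 (3.50, SE 0.404, adjusted p = 0.000181). It was 7.5-fold lower in HP than in HE1 (-2.91, SE 0.393, adjusted p = 0.000839).

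Esam encodes an immunoglobulin-family adhesion molecule of endothelial tight junctions. It was at 2.00 and 1.84 CPM (ES), 25.3 and 23.1 (HB), 150.0 and 131 (HE1), 114 and 43.5 (HE2), 17.7 and 27.1 (HP). The HP libraries had come back to the range of HB, lying on either side of it. Esam rose 12.5-fold from ES to HB (3.65, SE 0.415, adjusted p = 7.6e-05), rose 5.8-fold from HB to HE1 (2.54, SE 0.374, adjusted p = 0.000758) and fell 6.27-fold from HE1 to HP (-2.65, SE 0.376, adjusted p = 0.00102).

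Cldn5 encodes claudin-5, the main tight-junction claudin of endothelium, and had the lowest mean RNA level of the 5 adhesion genes from HB on. It was at 1.45 and 1.61 CPM (ES), 3.50 and 2.76 (HB), 10.9 and 4.95 (HE1), 7.07 and 1.14 (HE2), 0.342 and 0.636 (HP), where it rested on 15 and 20 counts. Its stage means stayed under 9 CPM, the level below which the study took a gene as not expressed, and the 2 HE2 libraries lay further apart than those of any other of the 9 genes at that stage (6.19-fold). The difference between HE1 and HB was not called (1.33, SE 0.683, adjusted p = 0.158), although it was without HE2 replicate 1 or HE2 replicate 2 (adjusted p = 0.0439 and 0.0398), in a fit of the 4 HB and HE1 libraries alone (0.0404) and without the low-count filter (0.00967). That between HB and ES was not called (1.03, SE 0.696, adjusted p = 0.272), but was in a fit of the 4 ES and HB libraries alone (1.06, SE 0.249, adjusted p = 0.00825). HP was 16.3-fold lower than HE1 (-4.03, SE 0.791, adjusted p = 0.00514), a call lost without HP replicate 1 (adjusted p = 0.0603), and 6.48-fold lower than HB (-2.70, SE 0.771, adjusted p = 0.0222). Cldn5 was the only one of the 9 called lower in HP than in HB.

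Pecam1 encodes PECAM-1 (CD31), an adhesion molecule of endothelial contacts that embryonic stem cells and blood cells are also known to carry. It was at 158 and 164 CPM (ES), 39.3 and 32.9 (HB), 745 and 491 (HE1), 483 and 339.8 (HE2), 239 and 217 (HP). No 2 stages overlapped, and HB was the lowest. It was the only one of the 9 called lower in HB than in ES (-2.15, SE 0.234, adjusted p = 5.6e-05), then rose 17.1-fold to HE1 (4.10, SE 0.253, adjusted p = 5.72e-06). It fell 2.72-fold from HE1 to HP (-1.44, SE 0.227, adjusted p = 0.00167) and was still 6.31-fold above HB there (2.66, SE 0.238, adjusted p = 2.12e-05).

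Icam2 encodes an adhesion molecule of endothelial contacts that binds leukocyte integrins. It was at 0.213 and 0.201 CPM (ES), 12.8 and 11.4 (HB), 67.3 and 42.2 (HE1), 32.5 and 7.71 (HE2), 2.76 and 8.65 (HP). HE2 replicate 2 lay below HP replicate 2 and below both HB libraries. Icam2 rose from ES to HB (5.84, SE 0.843, adjusted p = 0.000356) from 12 and 7 counts in ES, and rose 4.52-fold from HB to HE1 (2.18, SE 0.613, adjusted p = 0.0214). The second call was lost without HB replicate 1 (adjusted p = 0.0914), HB replicate 2 (0.129) or HE1 replicate 1 (0.082). It was 9.69-fold lower in HP than in HE1 (-3.28, SE 0.646, adjusted p = 0.00523).

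Emcn encodes endomucin, a sialomucin of the endothelial surface. The ES libraries held 1 and 0 counts of it (0.0177 and 0 CPM) and the HB libraries 9 each (0.298 and 0.254 CPM). HE1 had 13.7 and 6.14 CPM, HE2 6.22 and 1.52, HP 0.616 and 0.572. HE1 stood far above HB and HP, and the higher HE2 library reached the lower HE1 library. HB held 18 counts in all against 1 in ES, a ratio of 25.0 with a 95% exact interval of 3.94 to 1040 for counting error only. Its call from ES to HB (adjusted p = 0.0214) was lost without either ES library or either HB library (adjusted p = 0.054 to 0.0689). Emcn rose 35.6-fold from HB to HE1 (5.15, SE 0.748, adjusted p = 0.00069) and fell 16.5-fold from HE1 to HP (-4.05, SE 0.685, adjusted p = 0.0024).

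Eng encodes endoglin, an accessory receptor for TGF-beta and BMP ligands on endothelium. It was at 62.8 and 66.9 CPM (ES), 45.8 and 47.9 (HB), 624 and 362 (HE1), 365 and 199 (HE2), 84.3 and 99.6 (HP). The difference between HB and ES was not called (-0.47, SE 0.292, adjusted p = 0.236), and Eng, Pecam1 and Egfl7 were the genes already above 9 CPM in ES. Eng rose 10.5-fold from HB to HE1 (3.39, SE 0.318, adjusted p = 5.42e-05) and fell 5.36-fold from HE1 to HP (-2.42, SE 0.305, adjusted p = 0.000618).

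Cd34 encodes a sialomucin of endothelium and of blood progenitors. It was at 5.23 and 5.77 CPM (ES), 11.97 and 10.0 (HB), 255 and 225 (HE1), 539 and 539 (HE2), 415 and 311 (HP). No stages overlapped, and the order of HE1, HE2 and HP was unlike that of the other 8 genes. From ES to HB it doubled at the margin of the fold threshold (1.00, SE 0.183, adjusted p = 0.00155), a call that dropped out in 10 of the alternatives and left-out libraries given in the closing section. It rose 21.8-fold from HB to HE1 (4.45, SE 0.198, adjusted p = 1.99e-06) and a further 2.24-fold to HE2 (1.17, SE 0.172, adjusted p = 0.00394). Against HE1, HP was 1.51-fold higher (0.60, SE 0.17, adjusted p = 0.0285), which is under the 2-fold threshold.

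Egfl7 encodes a secreted protein of the vessel matrix and is the host gene of Mir126a. It was at 27.3 and 26.9 CPM (ES), 143 and 125 (HB), 451 and 629 (HE1), 279 and 119 (HE2), 65.5 and 80.8 (HP). It was the only one of the 9 that was higher in HE1 replicate 2 than in HE1 replicate 1, and HP lay below HB in both libraries. Egfl7 rose 4.96-fold from ES to HB (2.31, SE 0.337, adjusted p = 0.000379) and 4.02-fold from HB to HE1 (2.01, SE 0.331, adjusted p = 0.00145). It fell 7.38-fold from HE1 to HP (-2.88, SE 0.343, adjusted p = 0.000451).

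From ES to HB, 6 of the 9 genes were called higher and 1 lower, where 11.5% of the 22596 genes tested were called higher and 17.3% lower. The 6 were Cdh5, Esam, Icam2, Emcn, Cd34 and Egfl7, and the median log2 fold change of the 9 was 2.31 (1.98 with Emcn at the lower end of its counting interval), against 0.00 for all genes. Cdh5 ranked 91st from the highest of the 22596 genes by fold change. From HB to HE1, 8 were called higher and 0 lower, where 12.7% of all genes were called higher and 8.19% lower, and the median was 3.39 against 0.04. In all 9 genes both HE1 libraries lay above both HB libraries, as they did in 32.9% of all genes. HE1 was sorted for TIE2 and KIT, and HB was enriched for FLK1 alone. The gates and the gain of these genes therefore cannot be told apart. Tek itself was higher in HE1 than in HB (2.86, SE 0.322, adjusted p = 0.000156). At this step 7 of 11 mural and cardiac genes and 8 of 16 blood genes were called higher too. In these bulk samples, fewer cells of a type and less RNA per cell cannot be told apart.

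The calls into and out of HE1 were made again without the HE1 library that held the pluripotency signal. With a stage at 1 library, its spread is assumed to be that of the other stages, here and wherever a library is left out. Without HE1 replicate 2, the same 8 genes were called higher in HE1 than in HB, where 9.6% of all genes were called higher, and 8 were called lower in HP than in HE1, where 6.86% were called lower. In HE1, 8 of the 9 genes were higher in replicate 1, where 51.3% of all genes were, with a summed level of 3748 CPM against 2688 CPM. Of 27 other endothelial surface genes, 25 were higher in replicate 1 as well. The part of the pluripotent and mural RNA in this difference was not tested.

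**Figure D2:**
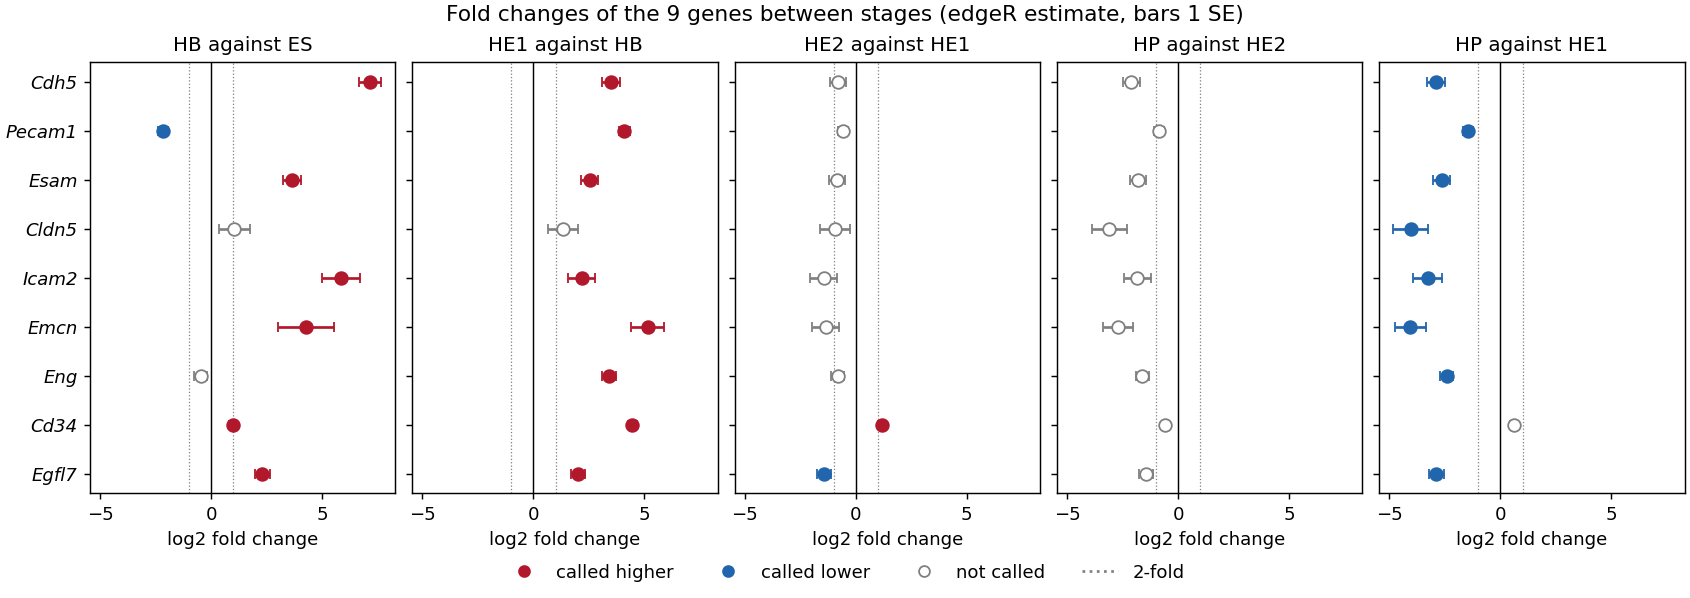
Log2 fold changes of the 9 genes in 5 comparisons of stages, with bars of 1 SE, filled red where called higher, filled blue where called lower and open where not called. HB to HE1 has 8 red points and HE1 to HP 8 blue ones, whereas both steps through HE2 hold mostly open points left of 0.

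From HE1 to HP, 8 genes were called lower and 0 higher, where 11.2% of all genes were called lower and 5.35% higher, and the median log2 fold change was -2.88 against -0.02. HP was sorted for the absence of TIE2, an endothelial receptor, so that the gate and the fall of these genes in HP cannot be told apart. Tek itself was lower in HP than in HE1 (-2.77, SE 0.321, adjusted p = 0.000392). Also called lower at this step were 5 of 11 mural and cardiac genes and 9 of 9 pluripotency genes. Between the HP libraries, 14 of 16 blood genes were higher in replicate 1, where 52.2% of all genes were. Of the 9 genes, 6 were higher in HP replicate 2, as were 19 of 27 other endothelial surface genes. Against HB, 2 genes stayed higher in HP (Pecam1 and Cd34, by 6.31-fold and 33.0-fold), where 10.1% of all genes were called higher, and 1 was lower (Cldn5), where 11.6% were called lower. The other 6, Cdh5, Esam, Icam2, Emcn, Eng and Egfl7, were not called either way, with log2 differences from -1.10 to 1.11. Eng missed by fold alone, at 1.96-fold above HB (adjusted p = 0.0289).

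The step from HE1 to HE2 was called for 2 of the 9 genes. Cd34 rose, where 3.26% of all genes were called higher, and Egfl7 fell 2.71-fold (-1.44, SE 0.326, adjusted p = 0.0231), where 5.39% were called lower. The other 7 had negative log2 fold changes between -0.59 and -1.44 that were not called, with adjusted p from 0.0839 to 0.145 and 0.328 for Cldn5. At an unadjusted p under 0.05, 6 of the 9 were lower at this step, where 19.7% of all genes were. The median of the 9 was -0.84, against -0.08 for all genes. Limma-voom called 2 of the 9 lower at this step (5.88% of all genes), DESeq2 1 (7.94%) and edgeR with no filter on low counts 3 (7.34%).

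From HE2 to HP none of the 9 genes was called by edgeR, and none of the 22596 genes was (0.0% in either direction). All 9 had negative log2 fold changes, from -0.57 for Cd34 to -3.09 for Cldn5, with a median of -1.81 against 0.01 for all genes. At an unadjusted p under 0.05, 9 of the 9 were lower, where 4.93% of all genes were. Limma-voom called 1 of the 9 lower (0.119% of all genes), DESeq2 called 6 (0.854%), and edgeR with no filter on low counts called 7 (0.997%). With no filter the SE of Cdh5 at this step was 0.183, against 0.381 in the main test, and what made it smaller was not tested. In 8 of the 9 genes both HP libraries lay below both HE2 libraries, as they did in 13.0% of all genes, and Icam2 was the exception.

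The 2 HE2 libraries disagreed on where these genes fell. In replicate 1 and replicate 2 the 9 genes summed to 2688 and 1663 CPM. Among the 8 genes other than Cd34, replicate 1 was higher in every one, where it was higher in 51.8% of all genes, by 1.42-fold for Pecam1 to 6.19-fold for Cldn5, with 4.22-fold for Icam2 and 4.08-fold for Emcn. On the log2 scale, HE2 replicate 1 had covered 1.4% to 32.4% of the way from HE1 to HP, and replicate 2 had covered 47.8% to 81.0%. Cd34 was at 539 CPM in both.

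**Figure D3:**
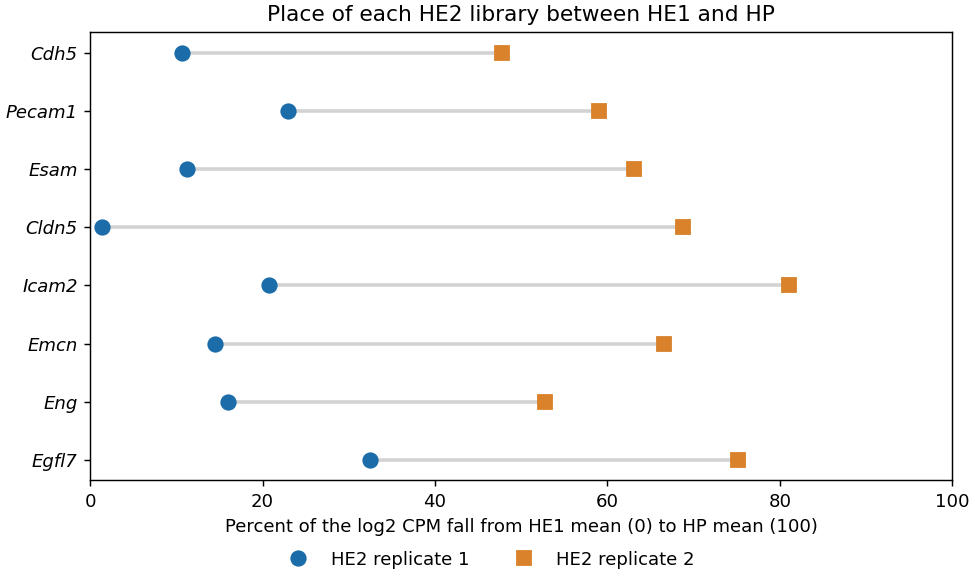
Place of each HE2 library, for the 8 genes that were lower in HP than in HE1, on a scale where 0 is the HE1 mean and 100 the HP mean of log2 CPM. Circles (replicate 1) lie between 1.4 and 32.4 and squares (replicate 2) between 47.8 and 81.0, with no overlap between the libraries.

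Other lists moved with the same split. In HE2, 25 of 27 other endothelial surface genes were higher in replicate 1 (summed levels 4062 and 2286 CPM), and 13 of 16 blood genes were higher in replicate 2 (2365 and 3273 CPM). Replicate 1 was also higher for 10 of 11 mural and cardiac genes (993 and 644 CPM) and for 22 of 24 junction partners, the catenins, scaffold proteins and other cadherins described further on (4338 and 3045 CPM). Their part in the split of the 9 genes was not tested. With 1 HE2 library left, the spread was again taken from the other stages. Without HE2 replicate 1, 7 of the 9 genes were called lower in HE2 than in HE1 (all but Pecam1 and Cd34, where 8.67% of all genes were called lower) and 0 were called lower in HP than in HE2, where none of the genes tested was (0.0%). Without HE2 replicate 2, 0 were called lower in HE2 than in HE1 (0.401% of all genes) and 8 were called lower in HP than in HE2 (all but Cd34, 1.95% of all genes). Egfl7 lost its call in HE2 without HE1 replicate 2 (adjusted p = 0.122, with 1.1% of all genes called lower) or HE2 replicate 2 (adjusted p = 0.0812). Without HE1 replicate 1, Cdh5 and Eng were called lower in HP than in HE2 (adjusted p = 0.0429 and 0.036, with 0.176% of all genes called lower), and without HE1 replicate 2 Eng was (adjusted p = 0.0403, with 0.153%). The difference of the changes before and after HE2 was called for none of the 9 genes (0.0575% of all genes were called with a higher change before HE2 and 0.0% with a lower one). It came nearest for Cd34, which rose and then had a negative difference (1.74, SE 0.286, adjusted p = 0.0811), and was called for this gene without HE1 replicate 1 (1.86, SE 0.286, adjusted p = 0.0243, with 0.825% of all genes called higher).

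Per length, the order of the 9 genes changed with the stage. In ES Pecam1 led at 25.8 FPKM, then Eng at 16.0 and Egfl7 at 7.56, with the other 6 between 0.00164 and 1.08 FPKM. In HB Egfl7 (37.5 FPKM) and Cdh5 (23.4 FPKM) led, and their libraries did not overlap. In HE1 the mean order was Cdh5 (265 FPKM), Egfl7 (151), Eng (122), Pecam1 (99.3), Esam (48.9), Cd34 (32.9), Icam2 (28.8), Cldn5 (5.58) and Emcn (1.83). Neighbours from Egfl7 to Pecam1 overlapped between libraries, as did Cd34 and Icam2, whereas Cdh5 lay above the rest in both libraries and was within the top 0.429% of the tested genes. Emcn and Cldn5 had the lowest means at each stage after HB.

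In HE2 Cdh5 led still at 152 FPKM, and Cd34 was second on the mean at 73.9 FPKM with both libraries at the same level, inside the ranges of Eng, Pecam1 and Egfl7. In HP Cd34 was first at 49.8 FPKM (56.9 and 42.6), Pecam1 second at 36.6 and then Cdh5 at 35.4, and the libraries of Cd34 and Cdh5 met at 42.6 and 42.7 FPKM. Of the summed CPM of the 9 genes, Cd34 made up 6.81% and 8.36% in the HE1 libraries, 20% and 32.4% by HE2 and 44.0% and 33.6% by HP. Cdh5 went the other way, from 38.2% and 29.7% in HE1 to 12.5% and 19.4% in HP.

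Partners of these proteins at the junction, a list of 24 genes for catenins, scaffold and tight-junction proteins and other cadherins, were tested as background to them. From HB to HE1, 8 of the 24 were called higher (12.7% of all genes) and 0 lower (8.19%), with a median log2 fold change of 0.59. They were led by Ptprb, the phosphatase VE-PTP that binds VE-cadherin (3.09, SE 0.515), Rasip1, which acts in vessel tube formation (2.34, SE 0.331), and Jup, plakoglobin of adherens junctions and desmosomes (2.30, SE 0.242). From HE1 to HE2, 6 of the 24 were called lower (5.39% of all genes) and 0 higher (3.26%), among them Cdh2, N-cadherin (-1.54, SE 0.32), Afdn, the actin-binding afadin (-1.52, SE 0.325), and Heg1 (-1.48, SE 0.369). From HE1 to HP, 13 were called lower (11.2% of all genes), led by Ptprb (-3.79, SE 0.533), Rasip1 (-2.99, SE 0.34) and Heg1 (-2.50, SE 0.383), and from HE2 to HP 0 were, as for all genes tested (0.0%).

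Of 28 other endothelial surface genes, 27 were tested and 24 were called higher in HE1 than in HB (12.7% of all genes), with a median of 3.15, including the lectin-like surface proteins Clec14a (6.28, SE 0.983) and Cd93 (3.84, SE 0.47) and Robo4, a guidance receptor of vessels (3.82, SE 0.881). In HP, 21 were called lower than in HE1 (11.2% of all genes) and 1 higher (5.35%). From HE1 to HE2, where 5.39% of all genes were called lower and 3.26% higher, 2 were called lower, Mcam and the VEGF co-receptor Nrp1 (-1.72 and -1.27), and 1 higher, Selp, the P-selectin of endothelium and platelets (3.92, SE 0.502). This list includes Tek and Kdr, which were used in the sorts.

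Among 19 endothelial and hemangioblast transcription factors, 13 were called higher in HE1 than in HB (12.7% of all genes) and 1 lower (8.19%). Epas1 (4.07), Mecom (3.19) and Sox17 (2.68) rose, while Etv2, an early ETS factor of vessel and blood precursors, fell (-3.79, SE 0.294). In HP, 11 were called lower than in HE1 (11.2% of all genes), led by Sox17 (-4.18, SE 0.678), Bcl6b (-4.11, SE 0.815) and Sox7 (-4.08, SE 0.71), and 2 higher (5.35%), Lyl1 (2.01) and Tal1 (1.39), which also act in blood cells. Of 16 blood genes, 13 were called higher in HE2 than in HE1 (3.26% of all genes) and 0 lower (5.39%), among them Spi1 (4.4), Ptprc (4.27) and Itgb3 (3.90). These 3 were picked as the largest rises among called list genes at 9 CPM or more in 1 of the 2 stages. Cd34 rose at the same step (1.17, SE 0.172). The blood list includes Itga2b (1.46, SE 0.254), the gene of CD41, by which HE2 was sorted from HE1. That gate and the rise of these genes cannot be told apart.

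**Figure D4:**
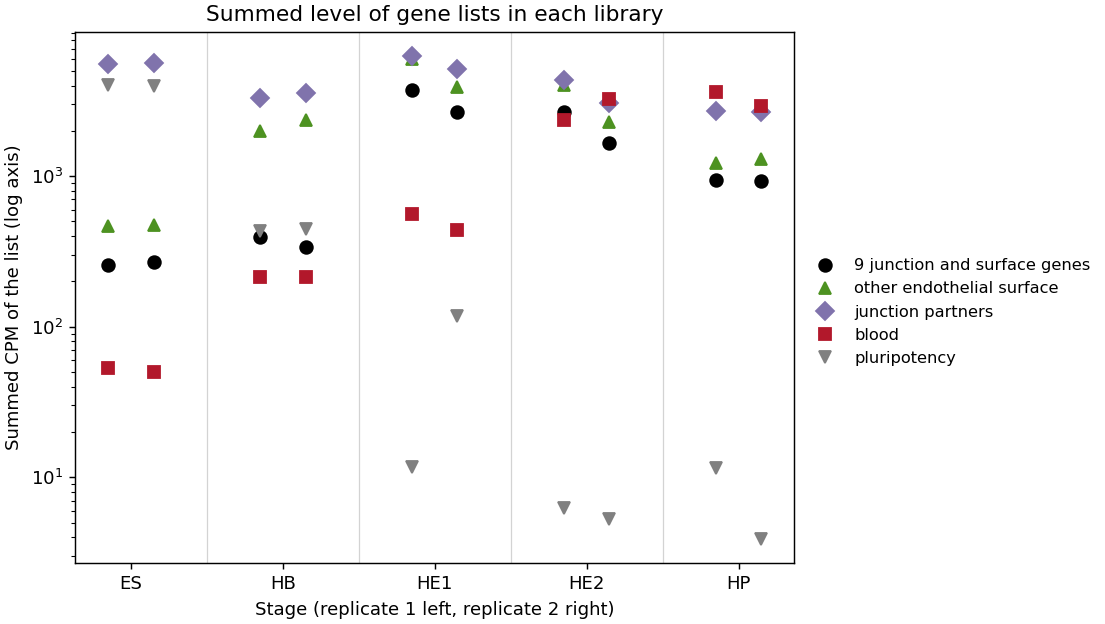
Summed CPM (log axis) of the 9 genes and of 4 other lists in each library, with replicate 1 left and replicate 2 right within a stage. The 9 genes and the other endothelial surface genes peak in HE1 and step down from HE2 replicate 1 to replicate 2, the blood list steps up there, and the pluripotency list is 118 CPM in HE1 replicate 2 against 11.8 in replicate 1.

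The genes with the profile most like the mean of the 9, by Pearson r of log2 CPM over the 10 libraries among 12227 other genes at 9 CPM or more in a stage, were Arhgap27 (r = 0.998), Ecscr (0.997), Itpkb (0.992), Thbd (0.992), Itga1 (0.991), Rab12 (0.99), Tecpr1, Itga2 and Litaf (0.988 each) and Tmem204 (0.987). The 10 libraries are pairs from 5 stages, so these values describe stage differences that many genes share. Ecscr is an endothelial surface protein and Thbd is thrombomodulin, and Thbd was in the list of other surface genes. Arhgap27 averaged 13.0 CPM (ES), 27.6 (HB), 115 (HE1), 75.3 (HE2) and 30.7 (HP). Of the 9 themselves, which enter the mean, Emcn had r = 0.997 and Esam 0.963, and Cd34 (0.778) and Pecam1 (0.665) were the furthest from it, while Cldn5 was under 9 CPM at each stage and was not ranked. Between pairs of the 9, r ran from -0.013 for Cldn5 and Cd34 to 0.981 for Cdh5 and Esam.

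Small genes inside Eng and Egfl7 were read separately, and were chosen after their values were seen. Egfl7 carries Mir126a, whose mature product miR-126a-3p (RefSeq, chr2:26591402-26591423, plus strand) is shown with its seed, bases 2 to 8, in capitals.
miR-126a-3p: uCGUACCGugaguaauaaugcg

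Counts on the Mir126a gene in nuclear RNA come from its precursor or from Egfl7 transcripts and not from the mature miRNA. HE1 had 87 and 346 of them, against 3 and 9 for ES, 32 and 20 for HB, 48 and 14 for HE2 and 11 and 21 for HP. Per 1000 counts of Egfl7 this was 18.2 in HE1 replicate 2 and 1.95 to 9.62 in the other 9 libraries. The 3 small genes within Eng on its strand, Mir1954, Gm47291 and Gm26236, gave 18.3 counts per 1000 of Eng in HE1 replicate 2 and 3.99 to 9.87 elsewhere. The same library thus stood apart for both hosts, with host levels of 629 CPM for Egfl7 and 362 CPM for Eng, and what set it apart was not tested. The overlapping Gm20532 was at 138 and 141 CPM in HE1 and followed Egfl7 down to 24.7 and 28.3 CPM in HP. Per 1000 counts of Egfl7 it was at 644 and 652 in ES and at 224 to 405 in the other libraries. The part of the shared bases in the Egfl7 level of ES was not tested.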

How the data were processed

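Nuclear RNA of 10 libraries (5 stages, 2 each) was sequenced with a stranded kit. Per the study's methods and the submitters' processing notes, the authors removed ribosomal reads, trimmed with Trimmomatic, aligned to mm10 with HISAT2 (2.2.1) and counted fragments per gene on the reverse strand, overlaps included, with featureCounts (2.0.1, Ensembl 102). The deposited files hold these raw counts per library, and a matrix of 1 mean value per stage for 15686 genes, treated here as a score because its ES column sums to more than CPM can. The score was used only to find the 9 genes.

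Counts were tested with edgeR (4.0.16; filterByExpr, TMM, quasi-likelihood F-test, 1 coefficient per stage over all 10 libraries, 5 residual degrees of freedom, Benjamini-Hochberg over 22596 genes). CPM are TMM-scaled, FPKM divide them by counted exon length, and log2 CPM used a prior count of 2. Limma-voom (3.58.1), the study's method, and DESeq2 (1.42.0) were alternatives. The 2 libraries of a stage are biologically independent per the study. Over all genes tested, deviations of same-numbered libraries from their stage means correlated at r from -0.316 to 0.213 between stages. The main test used no block, and these values cannot show whether the libraries are paired. Depth was 24920434 to 58782055 counts, and intervals cover counting error only.

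The 9 genes and the gene lists were chosen with earlier results of these data known. Named in the text are all 9 genes, the sorted antigens, up to 3 called list genes per direction and neighbouring comparison with at least 9 CPM in 1 stage, the same for HP against HE1 (added later), and the 10 genes with the highest r to the members' mean profile. The edgeR test was tried on simulated counts with genes changed in HE1 only, and only HE1 against HB was checked. The steps through HE2 were not checked in this way. Promoter and miRNA sequences were from RefSeq (GRCm38.p6).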

Additional observations from a re-analysis of the deposited data

How the results depend on the processing

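The gain from HB to HE1 was called for 7 to 9 of the 9 genes with any 1 library left out (6.03% to 13.9% of all genes), and the fall from HE1 to HP for 7 or 8 (4.66% to 15.1%). Genes called higher in HB than in ES were 4 to 6 over all alternatives and left-out libraries (6.17% to 14.8%). With only the 4 libraries of these stages they were again 6, with Cldn5 added (1.06, adjusted p = 0.00825) and Emcn below the filter on low counts. A fit of the 4 HB and HE1 libraries (13.4% of all genes) and one with no filter (9.34%) called all 9 higher in HE1 than in HB, Cldn5 included. Cd34 (log2 fold change near the 2-fold threshold) dropped out from ES to HB under limma-voom, DESeq2, the replicate block and 7 left-out libraries, and Emcn under limma-voom and 4 left-out libraries. The steps through HE2 did not hold their counts. Genes called lower in HE2 than in HE1 were 1 in the main test, 2 under limma-voom, 3 with no filter on low counts, 0 with the 4 libraries of these stages alone (0.903% of all genes), 0 at a 4-fold threshold (2.34%), and 0 to 7 with 1 library left out (0.401% to 12.0% of all genes). At 4-fold, 0 were called higher there (1.65%). Genes called lower in HP than in HE2 were 0 in the main test, 1 under limma-voom, 6 under DESeq2, 7 with no filter, and 0 to 8 with 1 library left out (0.0% to 1.95%). The difference of the changes before and after HE2 became significant for Cdh5 with no filter (1.32, where 1.02% of all genes were called higher and 0.846% lower), and for Cd34 under DESeq2 (1.73, where 0.766% were called higher) and with no filter (1.76), with 1.56 to 1.98 for Cd34 when 1 library was left out, a call only without HE1 replicate 1 (1.86, adjusted p = 0.0243). With 1 library left out, the same difference ran from 0.05 (without HE2 replicate 1) to 2.17 (without HE2 replicate 2) for Cdh5, -0.27 to 0.74 for Pecam1, -0.71 to 2.05 for Esam, -1.52 to 3.72 for Cldn5, -2.35 to 1.79 for Icam2, -1.33 to 2.71 for Emcn, -0.17 to 1.57 for Eng and -1.44 to 1.00 for Egfl7. For Egfl7, at 0.01 in the main test, it changed sign under limma-voom (-0.21), DESeq2 (-0.01), total counts in place of TMM (-0.16) and the table of matrix genes (-0.10). The Cdh5 difference had an SE of 0.297 with no filter, against 0.621 in the main test. Where not shown by fewer libraries, the cause was not tested.

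Whether the replicate numbers pair the samples was not tested beyond the correlation over all genes. Replicate 1 was higher for 8 of the 9 genes in each of HB, HE1 and HE2, for 5 in ES and for 3 in HP. With the replicate number as a block, the counts of the 9 genes called stayed within 1.5 times those of the main test, while over all genes 766 in place of 1217 were called lower in HE2 than in HE1 and 3 in place of 13 had a higher change before HE2 than after it, Cd34 lost its call from ES to HB (1.00), and the Egfl7 difference was -0.06. Of the 10 most similar genes, 1 was shared with Spearman's rho and 4 with stage means. In ES, Emcn (1 and 0 counts), Icam2 (12 and 7), Cdh5 (46 and 18), Cldn5 (82 and 56) and Esam (113 and 64) are limited by depth. The folds from ES to HB that rest on these counts are limited as well.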
